A study of Mus musculus with 2 samples.

Results

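Chemokine ligands were followed across brain immune cells as a set of 10 genes chosen by symbol, out of 32285 genes counted: Ccl2, Ccl3, Ccl4, Ccl5, Ccl6, Ccl9, Ccl12, Cxcl2, Cxcl10 and Cxcl16. All 10 had transcripts in both libraries. The libraries came from 23-week-old male littermates, 6 brains pooled per genotype. Mice of one group (Disc1 LI/LI, called LI from here) were homozygous for an allele that impairs the Disc1 locus, and those of the other (Disc1 WT/WT, called WT) had 2 wild-type alleles. Every brain was dissociated with actinomycin D, a transcription blocker that limits the response of cells to dissociation (Act-Seq). CD45low CD11b+ cells, the gate that favours microglia, were then sorted and sequenced in droplets. With 1 library per genotype, no test between genotypes was possible, and genotype cannot be told apart from library, pool, sort or chip.

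Chemokines are small secreted proteins that guide leukocytes along concentration gradients through G protein-coupled receptors. The CC and CXC families are named for the spacing of their first cysteines. In the brain, microglia and the macrophages of the meninges and vessels are known sources, and infiltrating myeloid cells and lymphocytes bring their own ligands with them.

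The authors deposited counts of UMIs, random tags that mark each captured transcript so that amplified copies count once. Levels are given as CPM: the UMIs of a gene divided by all UMIs of the same cells, times 1000000. Each transcript is tagged at 1 end, so levels were not divided by gene length. All intervals are exact 95% intervals for counting error only. The WT library held 7038 barcodes and 33601957 UMIs, and the LI library 7834 barcodes and 47731571 UMIs, with 12 barcode sequences in common. Of these, 7032 and 7817 had 200 genes or more and no more than 10% of UMIs from mitochondrial genes, and only they were used. Disc1 itself had 642 UMIs (19.1 CPM) in WT and 22 UMIs (0.461 CPM) in LI.

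Cells were classed by shares of their UMIs. Microglia-like cells had at least 0.5% of UMIs from P2ry12, Gpr34, Tmem119, Siglech, Fcrls and Olfml3 and under 1% from S100a8 and S100a9. Neutrophil-like cells had at least 3% from S100a8 and S100a9. WT held 6180 microglia-like, 116 neutrophil-like and 736 other cells, and LI 1950, 3622 and 2245. The label microglia therefore described 87.9% of the WT cells and 24.9% of the LI cells. Each class was led by its own markers: all 10 microglia markers were above the remaining cells in the microglia-like class of both libraries, and all 10 neutrophil markers in the neutrophil-like class. These classes are ranges of a score. The share of microglia genes lay between 0.4 and 0.6% in 293 WT and 164 LI cells. Median UMIs per cell were 4271 and 3788 in microglia-like, 4845 and 4194 in neutrophil-like and 3641 and 6403 in other cells. The 10 neutrophil markers were also found in microglia-like cells, at 1293 CPM in LI and 182 CPM in WT. Csf3r alone gave 1003 of these 10569 UMIs in LI and 4190 of the 5357 in WT.

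Of the 10 genes, 8 lie on mouse chromosome 11 (mm10). Ccl2 (82035571 to 82037453) and Ccl12 (82101845 to 82103400) stand 64391 bases apart on the plus strand. Further along come Ccl5 (83525778 to 83530518), Ccl9 (83572919 to 83578636), Ccl6 (83587882 to 83593087), Ccl3 (83647844 to 83649355) and Ccl4 (83662584 to 83664683), with 13228 bases between Ccl3 and Ccl4. Cxcl16 lies apart from them at 70453983 to 70459984. Cxcl2 (90903871 to 90905938) and Cxcl10 (92346638 to 92348889) are on chromosome 5. In the longest coding transcript annotated by GENCODE, Ccl6 and Ccl9 have 4 exons, Cxcl16 has 5 and the others have 3. Cxcl16, Ccl2, Ccl6 and Cxcl10 each overlap a gene on the opposite strand, and how strand was used in counting is not given in the sources used here.

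RefSeq promoters (GRCm38.p6, 250 bases before to 50 after the gene start) matched 6 of the 10 genes. The promoters of the strongest neutrophil ligand (Cxcl2), of the ligand that stood highest in interferon-marked microglia (Ccl12), of another CXC ligand usually described as interferon-induced (Cxcl10) and of a ligand that stood high in cells with immediate early transcripts (Ccl3) are shown, since the levels below turn on these genes. Capitals mark matches on either strand to an interferon-stimulated response element core (GAAA, any 2 bases, GAAA), an AP-1 site (TGANTCA) or an NF-kB site (GGGA and any base followed by TTCC or TTTCC, or GGGA and any 2 bases followed by TCCC).
Cxcl2 promoter, chr5:90903649-90903948, plus strand: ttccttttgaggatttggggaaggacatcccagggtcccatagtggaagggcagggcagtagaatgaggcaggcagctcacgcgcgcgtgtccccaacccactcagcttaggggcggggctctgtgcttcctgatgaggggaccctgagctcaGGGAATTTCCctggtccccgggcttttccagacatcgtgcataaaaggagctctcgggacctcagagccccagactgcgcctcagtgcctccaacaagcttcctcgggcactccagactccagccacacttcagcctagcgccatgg
Cxcl10 promoter, chr5:92348840-92349139, minus strand: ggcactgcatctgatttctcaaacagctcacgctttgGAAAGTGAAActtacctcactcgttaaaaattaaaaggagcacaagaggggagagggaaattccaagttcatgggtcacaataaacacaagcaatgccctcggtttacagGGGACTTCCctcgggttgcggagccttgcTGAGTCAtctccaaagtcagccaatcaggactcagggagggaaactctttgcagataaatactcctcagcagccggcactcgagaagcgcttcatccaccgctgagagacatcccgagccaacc
Ccl12 promoter, chr11:82101595-82101894, plus strand: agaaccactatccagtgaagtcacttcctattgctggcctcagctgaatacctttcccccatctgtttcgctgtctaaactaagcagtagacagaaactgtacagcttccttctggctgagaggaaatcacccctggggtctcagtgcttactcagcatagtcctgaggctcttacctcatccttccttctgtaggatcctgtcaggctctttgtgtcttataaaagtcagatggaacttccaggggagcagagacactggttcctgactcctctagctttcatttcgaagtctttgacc
Ccl3 promoter, chr11:83649329-83649628, minus strand: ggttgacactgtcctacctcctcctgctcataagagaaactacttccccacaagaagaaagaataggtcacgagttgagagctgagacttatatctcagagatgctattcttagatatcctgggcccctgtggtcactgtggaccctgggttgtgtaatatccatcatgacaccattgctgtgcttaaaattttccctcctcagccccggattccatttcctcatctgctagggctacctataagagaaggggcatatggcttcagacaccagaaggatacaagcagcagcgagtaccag
Cxcl10 held 1 match to each motif, Cxcl2 held 1 NF-kB match, and Ccl12 and Ccl3 held none of these letters in the window. The NF-kB match of Cxcl10 also fits the form that ends in TCCC, whose last base is left in lower case. Over 32851 promoters of this length, 3.44% held the interferon element core, 7.81% the AP-1 site and 2.38% an NF-kB site. Of the promoters not shown, Ccl9 held 1 AP-1 match and Ccl6 no match.

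As a set, the ligands made up 588 CPM of microglia-like, 3386 CPM of neutrophil-like and 2515 CPM of other cells in WT, and 931, 4332 and 2335 CPM in LI. At least 1 of them was detected in 71.5% of WT and 78.2% of LI microglia-like cells (31.9% and 40.3% after thinning every cell to 1000 UMIs). The mixture differed by class. In neutrophil-like cells Cxcl2 alone supplied 66.2% (WT) and 70.3% (LI) of the ligand UMIs and Ccl6 another 27.1% and 26.6%. In microglia-like cells no ligand exceeded 28.7%, and the leading ones were Ccl6, Ccl4 and Ccl12 in WT and Ccl4, Ccl6 and Ccl3 in LI.

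**Figure D1:**
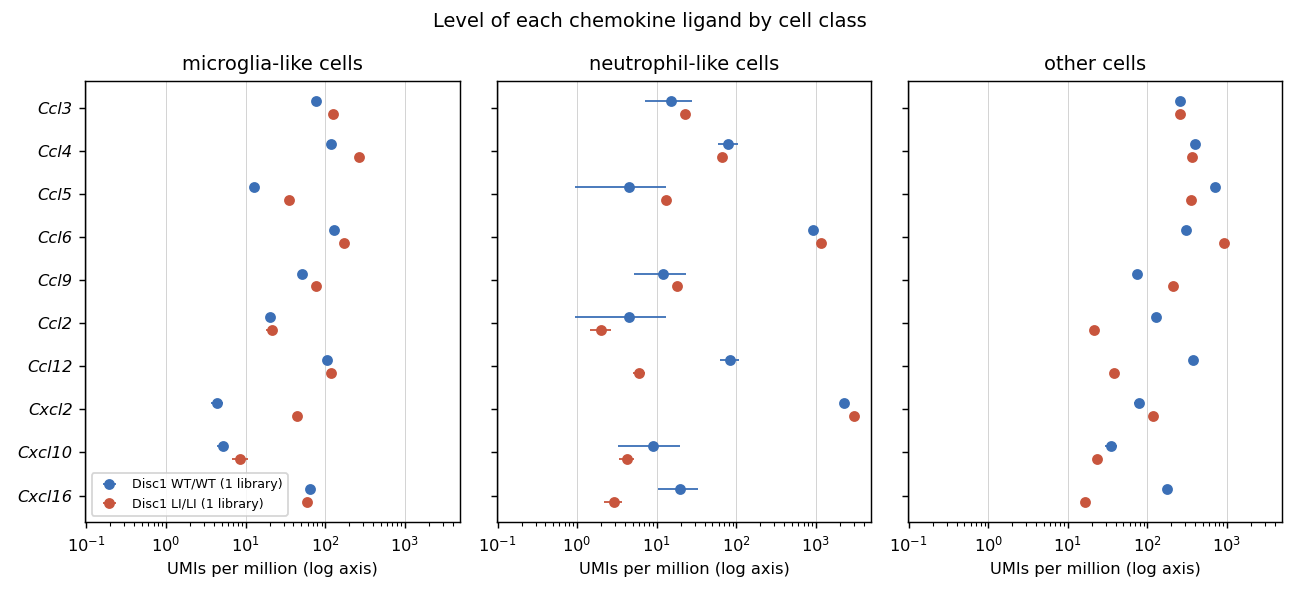
Level of each ligand in CPM (log axis) in microglia-like, neutrophil-like and other cells. Points are the 2 libraries (blue, WT; red, LI) and bars are exact 95% Poisson intervals. Cxcl2 stood at 2241 and 3045 CPM in neutrophil-like cells and at 4.42 and 44.8 CPM in microglia-like cells.

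In microglia-like cells, 3 of the 10 ligands were at least 2-fold higher in LI (Ccl4, Ccl5 and Cxcl2), where 1.45% of the 11087 genes compared in this class were at least 2-fold higher. None of the 10 was at least 2-fold lower, where 3.42% of genes were. The median log2 ratio of the 10 was 0.65, beside -0.19 for all genes compared. A gene was compared where the libraries together gave it 50 UMIs, which all 10 reached. The 10 were chosen with earlier results of these data known. Of the 3 called, Ccl5 fell to a log2 ratio of -0.14 with the 5% deepest cells left out. The LI shares of cells with Ccl5 and with Cxcl2 were also near those of cells that are not a known source, given below.

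Ccl3 and Ccl4 (macrophage inflammatory proteins 1-alpha and 1-beta) draw monocytes, macrophages and T cells, and Ccl3 signals through CCR1. Ccl3 stood at 76.1 CPM in WT and 125 CPM in LI microglia-like cells, a log2 ratio of 0.71 (0.61 to 0.82). Ccl4 stood at 117 and 267 CPM, a log2 ratio of 1.19 (1.11 to 1.26). Their transcripts were concentrated in few cells. Ccl4 was detected in 9.60% and 13.5% of microglia-like cells, and the 1% of cells with most Ccl4 held 65.1% and 57.8% of its UMIs. Endothelial-like cells, which should lack it, showed it in 0 of 17 WT (0 to 19.5%) and 1 of 26 LI cells (0.0973 to 19.6%). Their medians were shallower, at 2548 and 1862 UMIs, and the 1 LI cell held 12 UMIs (157 CPM over the 26). These intervals include the microglia-like shares, so the cells were too few to set a background. In neutrophil-like cells Ccl3 was lower, at 15.0 and 22.9 CPM, and Ccl4 stood at 79.4 and 66.5 CPM, each with a log2 ratio whose interval includes 0. For Ccl4, 1 WT cell held 26 of the 53 UMIs, and without the highest cell of each library the levels were 40.8 and 64.1 CPM, which turns the direction. Other cells carried both at 254 to 400 CPM in either library.

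Ccl3 and Ccl4 were found in the same microglia-like cells. After thinning, Ccl4 was detected in 28.9% (23.1 to 35.3%) of WT cells with Ccl3 and in 2.97% of those without it. The same shares in LI were 36.9% (28.0 to 46.6%) and 4.50%. Among 5503 genes compared cell by cell, Ccl4 was the gene most like Ccl3 in both libraries (Pearson r 0.40 over 6076 cells and 0.51 over 1933 cells). The immediate early genes Atf3, Junb and Jun were the others in the top 5 of both libraries, at r of 0.11 to 0.17. These cells share a library and a depth of 1000 UMIs, so the correlations are descriptions.

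Microglia-like cells were split, after thinning, by 10 immediate early genes (Fos, Fosb, Jun, Junb, Egr1, Ier2, Atf3, Dusp1, Btg2 and Zfp36), which are transcribed within minutes of stimulation. In the 1469 WT cells with at least 3 such UMIs, Ccl4 stood at 287 CPM, against 22.4 CPM in the 2096 cells with none, a 12.8-fold difference (9.44 to 17.7). In LI the values were 655 CPM in 563 cells and 35.9 CPM in 613 cells, an 18.3-fold difference (11.9 to 29.5). Ccl3 differed 10.1-fold and 8.04-fold between the same cells, and Ccl2 7.37-fold and 5.01-fold. Cxcl2 differed 14.3-fold (3.47 to 126) on 20 and 2 UMIs in WT and 4.02-fold (2.14 to 8.09) in LI. Ccl12 differed 1.58-fold (1.27 to 1.98) and 1.57-fold (1.13 to 2.20). With the highest cell of each side left out, the LI interval of Ccl12 (0.980 to 2.12) included equal levels. Ccl5 differed 4.28-fold (1.63 to 13.2) in WT, and its LI interval (0.545 to 3.01) included equal levels. Cxcl10 gave 12 and 3 UMIs in WT and 3 and 0 in LI. Cxcl16 (1.04-fold and 1.03-fold), Ccl6 (0.84-fold and 1.12-fold) and Ccl9 (0.74-fold and 1.14-fold) had intervals that include equal levels in both libraries, except that the WT interval of Ccl9 ran from 0.511 to 0.986 with the highest cell of each side left out. Cells with at least 3 such UMIs made up a larger part of the thinned microglia-like cells in LI (563 of 1933) than in WT (1469 of 6076). Between libraries, Ccl3 stood at 173 CPM (152 to 196) and 275 CPM (234 to 322) in the cells with at least 3 such UMIs. Ccl4 stood there at 287 CPM (260 to 315) and 655 CPM (590 to 726). These counting intervals do not overlap, but single cells held up to 59 and 65 Ccl4 UMIs. By share of cells, Ccl3 was in 8.78% (7.38 to 10.3%) and 12.1% (9.50 to 15.1%), with overlapping intervals. Ccl4 was in 8.24% (6.88 to 9.76%) and 13.1% (10.5 to 16.2%), which do not overlap. In the cells with none, Ccl3 stood at 17.2 CPM (12 to 23.8) in WT and 34.3 CPM (21.2 to 52.4) in LI, and Ccl4 stood at 22.4 CPM (16.5 to 29.8) and 35.9 CPM (22.5 to 54.3), on few UMIs and with overlapping intervals.

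**Figure D2:**
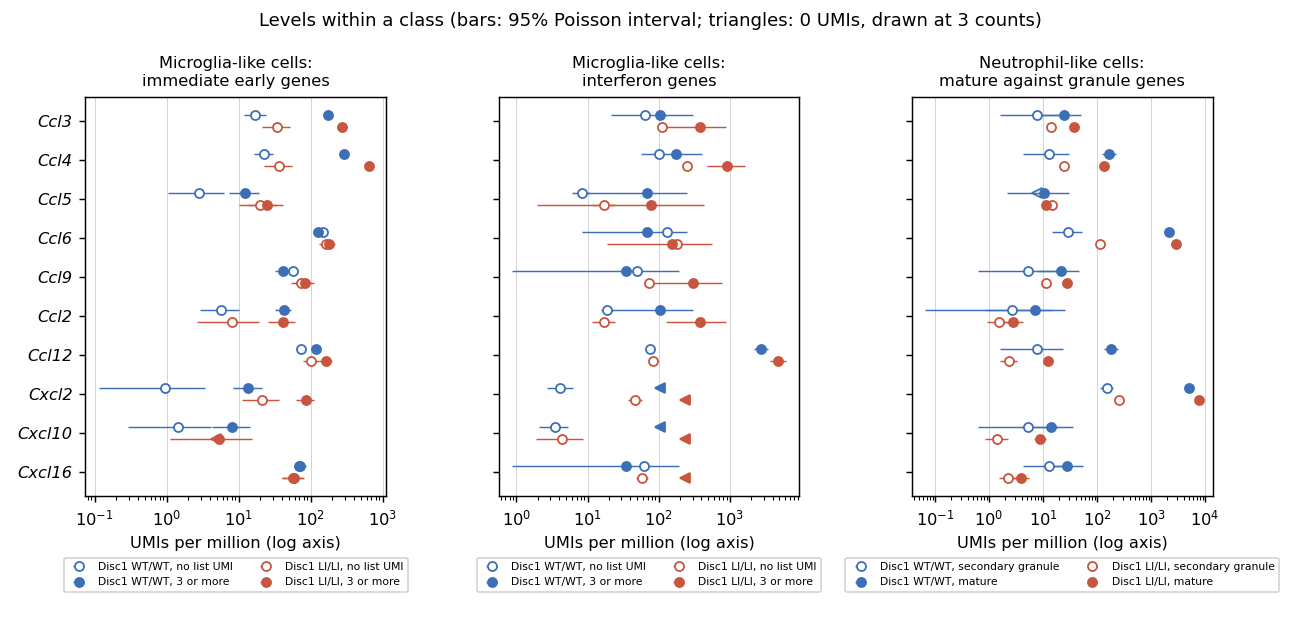
Ligand levels in CPM (log axis) within microglia-like cells split by immediate early genes (left) or interferon genes (middle), both thinned to 1000 UMIs, and within neutrophil-like cells split by granule against mature genes (right). Filled points are cells with at least 3 list UMIs or more mature UMIs, open points the cells compared with them, bars 95% Poisson intervals and triangles a count of 0 drawn at 3 counts. Ccl3 and Ccl4 separate on the left, Ccl12 in the middle and Ccl6 and Cxcl2 on the right.

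Ccl5 (RANTES), a T cell attractant made by cytotoxic lymphocytes, stood highest in T and NK cell-like cells, whose marker list does not hold it. Those among the other cells carried 10418 CPM (9901 to 10955) in 40 WT cells and 11455 CPM (11110 to 11808) in 99 LI cells. It was detected in 77.5% and 84.8% of them. In microglia-like cells it stood at 12.7 and 34.9 CPM, a log2 ratio of 1.46 (1.23 to 1.69), detected in 1.59% and 2.87% of cells. The 1% of cells with most Ccl5 held 90.3% and 87.4% of these UMIs. Without the 5% of cells with most UMIs of each class, the log2 ratio was -0.14. T and NK cell markers stood at 645 CPM in the 98 WT microglia-like cells with Ccl5 and 13.9 CPM in those without, and at 908 and 22.8 CPM in LI. Of these markers, a UMI was found in 13 of the 98 and 9 of the 56 cells. The part of cell doublets in this difference was not tested. In neutrophil-like cells, which are not a known source, Ccl5 rests on 3 UMIs in 2 WT cells and was detected in 2.71% (2.20 to 3.29%) of LI cells at 13.3 CPM and a median of 4194 UMIs. The LI share in microglia-like cells (2.18 to 3.71%) was near this share, while the CPM of Ccl5 was higher (34.9 against 13.3). The neutrophil-like UMIs were concentrated too: the top 1% of LI cells held 78.3% of the 286, with up to 71 in a cell. T and NK cell markers stood at 136 CPM in LI neutrophil-like and 59.0 CPM in LI microglia-like cells.

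Ccl6 and Ccl9 are CCR1 ligands found in rodents and made by myeloid cells. Ccl6 was the most widely detected ligand in microglia-like cells, in 38.4% of WT and 45.0% of LI cells, at 130 and 173 CPM, a log2 ratio of 0.42 (0.33 to 0.50). Thinned to 1000 UMIs, these shares were 11.9% and 15.4%. In T and NK cell-like cells, which should lack it, it was detected in 0 of 40 WT cells (0 to 8.81%) and in 10.1% of LI cells at 27.4 CPM. Median UMIs in those cells were 3401 and 3559. Neutrophil-like cells carried Ccl6 at 919 and 1151 CPM and monocyte-like cells at 1227 and 1648 CPM. Ccl9 stood at 50.6 and 76.5 CPM in microglia-like cells, a log2 ratio of 0.60 (0.46 to 0.73), and at 255 and 338 CPM in monocyte-like cells. It was far lower than Ccl6 in neutrophil-like cells, at 12 and 17.7 CPM. Neither was concentrated in few microglia-like cells: the top 1% held 11.2 to 14% of their UMIs.

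Ccl2 and Ccl12 (monocyte chemoattractant proteins 1 and 5) draw monocytes through CCR2. In microglia-like cells Ccl2 stood at 20.1 CPM (18.5 to 21.8) in WT and 21.3 CPM (18.2 to 24.7) in LI, values whose intervals overlap. Ccl12 was higher than Ccl2 in the same cells, at 107 and 120 CPM, a log2 ratio of 0.17 (0.06 to 0.27). It was detected in 23.3% and 21.4% of microglia-like cells, against 5.00% of 40 and 0 of 99 T and NK cell-like cells. After thinning, Ccl12 was found in 29.3% (19.7 to 40.4%) of WT microglia-like cells with Ccl2 and 6.76% of those without it. In LI these shares were 20.0% (6.83 to 40.7%) and 6.71% (5.63 to 7.93%), with overlapping intervals.

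Ccl12 stood highest in a small group of microglia-like cells with interferon-induced transcripts (Ifit1, Ifit2, Ifit3, Isg15, Irf7, Rsad2, Oasl2, Usp18, Ifi204 and Rtp4). The 29 WT cells with at least 3 of these UMIs had 79 Ccl12 UMIs, 2724 CPM (2157 to 3395), against 75.3 CPM in the 5800 cells with none. In LI, 13 such cells had 62 Ccl12 UMIs, 4769 CPM (3657 to 6114), against 83.6 CPM in 1830 cells. The fold differences were 36.2 (28.1 to 46.0) and 57.0 (41.8 to 77.1). Ccl12 was found in 17 of the 29 and 7 of the 13 cells, with at most 13 and 25 UMIs in a cell. Ccl2 gave 3 and 5 UMIs in these cells, 5.50-fold (1.12 to 16.5) and 22.7-fold (6.89 to 58.9) the level of cells without interferon UMIs. Cxcl10 gave 0 UMIs in either group, with exact upper limits of 127 CPM in WT and 284 CPM in LI. With the highest cell of each side left out, the folds of Ccl12 were 31.8 and 40.3, and the interval of Ccl2 in WT (0.526 to 16.4) included equal levels. The LI fold of Ccl2 was then 11.7 (1.35 to 46.8), on 2 UMIs in the interferon-marked cells. Cell by cell, Ccl12 and Ccl2 correlated at r of 0.16 and 0.13. Among genes detected in at least 2% of the thinned cells, which Ccl2 was not, the interferon-induced Ifitm3 was in the top 5 for Ccl12 in both libraries, at r of 0.15 and 0.11.

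Among the subsets of other cells, Ccl2 stood highest in border macrophage-like cells, marked by Mrc1, Pf4, Lyve1 and Cbr2, in both libraries. WT held 571 CPM (501 to 648) in 117 such cells. The 20 such cells of LI carried 217 CPM (129 to 343). Ccl12 in these cells stood at 1275 CPM and 2028 CPM, though in LI 1 cell held 123 of the 168 UMIs. Border macrophage markers in microglia-like cells stood at 836 CPM in WT cells with Ccl2 and 240 CPM in those without. The same values in LI were 232 and 184 CPM, and the part of border macrophage transcripts in the Ccl2 level of microglia-like cells was not tested. In neutrophil-like cells Ccl12 stood at 82.4 CPM in WT and 6.07 CPM in LI, but 1 WT cell held 46 of its 55 UMIs. With the highest cell of each library left out, the levels were 13.7 and 4.96 CPM.

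Cxcl2 (macrophage inflammatory protein 2), which draws neutrophils through CXCR2, showed the widest range of levels across classes of the 10 ligands. Neutrophil-like cells carried 2241 CPM (2129 to 2357) in WT and 3045 CPM (3022 to 3068) in LI, a log2 ratio of 0.44 (0.37 to 0.52). Cxcl2 was detected in 56.0% and 66.3% of these cells. LI neutrophil-like cells held 96.3% of all Cxcl2 UMIs of that library.

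Neutrophil-like cells were split by which of 2 lists gave more UMIs. These were a list called secondary granule (Camp, Ltf, Ngp, Lcn2, Cd177 and Chil3) and a list called mature (Retnlg, Csf3r, Cxcr2, Mmp8 and Il1b). Granule-rich and mature are names for the sides of this split, and maturity itself was not tested. Cxcl2 stood at 5051 CPM in 75 mature and 152 CPM in 41 granule-rich WT cells, and at 7610 CPM in 2339 and 257 CPM in 1282 LI cells. The folds were 33.3 (25.6 to 44.1) and 29.6 (28.6 to 30.7). In the granule-rich WT cells 1 cell held 40 of the 58 Cxcl2 UMIs, and with the highest cell of each side left out the WT fold was 98.3 (61.9 to 166). Ccl6 followed the same split, at 2116 against 28.7 CPM in WT and 2850 against 114 CPM in LI. It was detected in 92% and 92.6% of the mature cells. Ccl4 was also higher in mature cells, 12.9-fold (5.17 to 41.6) and 5.43-fold (4.8 to 6.16), but 26 of its 48 WT UMIs in mature cells were in 1 cell, and the WT fold without the highest cells was 7.29 (2.48 to 29.1). Ccl6 and Cxcl2 were detected together: after thinning, Cxcl2 was in 69.5% of WT neutrophil-like cells with Ccl6 and 19.6% of those without, and in 75.0% and 24.2% in LI.

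In microglia-like cells Cxcl2 stood at 4.42 CPM in WT and 44.8 CPM in LI, a log2 ratio of 3.34 (3.05 to 3.64), the widest of the 10. It was detected in 0.405% (0.262 to 0.597%) and 9.44% (8.17 to 10.8%) of the cells, or 0.198% and 2.79% after thinning. T and NK cell-like cells, not a known source, showed it in 0 of 40 WT cells and in 10.1% of 99 LI cells. Their LI level was 30.2 CPM (15.1 to 54.0), with at most 2 UMIs in a cell. The share of LI microglia-like cells with Cxcl2 was near that of these T and NK cell-like cells. The 1% of LI microglia-like cells with most Cxcl2 held 55.2% of its UMIs, with up to 80 in a cell. In WT 1 microglia-like cell held 53 of the 130 Cxcl2 UMIs. The microglia-like level was 1.47% of the neutrophil-like level in LI, where 7 neutrophil markers outside the class rule (Retnlg, Ly6g, Camp, Ltf, Ngp, Cxcr2 and Mmp8) stood at 0.437 to 1.17% of theirs. Csf3r, the remaining neutrophil marker, is left out of that range: it stood in microglia-like cells at 53.4% (WT) and 56.2% (LI) of the neutrophil-like level. In WT the microglia-like level of Cxcl2 was 0.197% of the neutrophil-like level, and the 7 markers were at 0.0114 to 0.0377%. A neutrophil marker UMI was found in 99.5% of LI microglia-like cells with Cxcl2 and in 98.4% of those without. That list includes Csf3r, S100a8 and S100a9, and nearly every LI cell held a UMI of it. This share therefore cannot tell cells with Cxcl2 from those without. The part of neutrophil transcripts in the microglia-like level of Cxcl2 was not tested. Over the 12 alternatives given below, the log2 ratio of Cxcl2 was lowest at 2.99, with S100a8 and S100a9 under 0.5%. It was highest at 5.10, with the microglia gene limit raised to 1%. With the highest cell of each library left out it was 3.74, on 77 WT and 286 LI UMIs.

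Cxcl10, a CXCR3 ligand that draws activated T cells, was rare throughout. Microglia-like cells carried 5.14 CPM (4.35 to 6.03) in WT and 8.57 CPM (6.68 to 10.8) in LI, from 151 and 70 UMIs in 52 and 20 cells. Cxcl16, which is membrane-anchored and binds CXCR6, was spread evenly: microglia-like cells carried 65.0 CPM (62.1 to 68.0) and 59.2 CPM (54.1 to 64.8), with 1.29 and 1.19 UMIs per positive cell. It was lower in neutrophil-like cells, at 19.5 CPM from 13 UMIs in WT and 2.87 CPM from 62 UMIs in LI. Microglia gene transcripts moved the same way in neutrophil-like cells: the 10 microglia markers stood at 5489 CPM in WT and 1117 CPM in LI. The part of microglia transcripts in the neutrophil-like level of Cxcl16 was not tested.

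Over the neutrophil-like cells, 9 of the 10 ligands had the 50 UMIs needed. Of these, 1 (Ccl5) was at least 2-fold higher in LI, where 6.15% of 8769 genes were, and 3 (Ccl12, Cxcl10 and Cxcl16) were at least 2-fold lower, where 19.3% of genes were. The intervals of Ccl5 and Cxcl10 include equal levels. The median log2 ratio was 0.33, beside -0.37 for all genes compared. Scaling the class by TMM instead of total UMIs shifts every ratio of this class by 0.54, and the ligand median to 0.87.

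**Figure D3:**
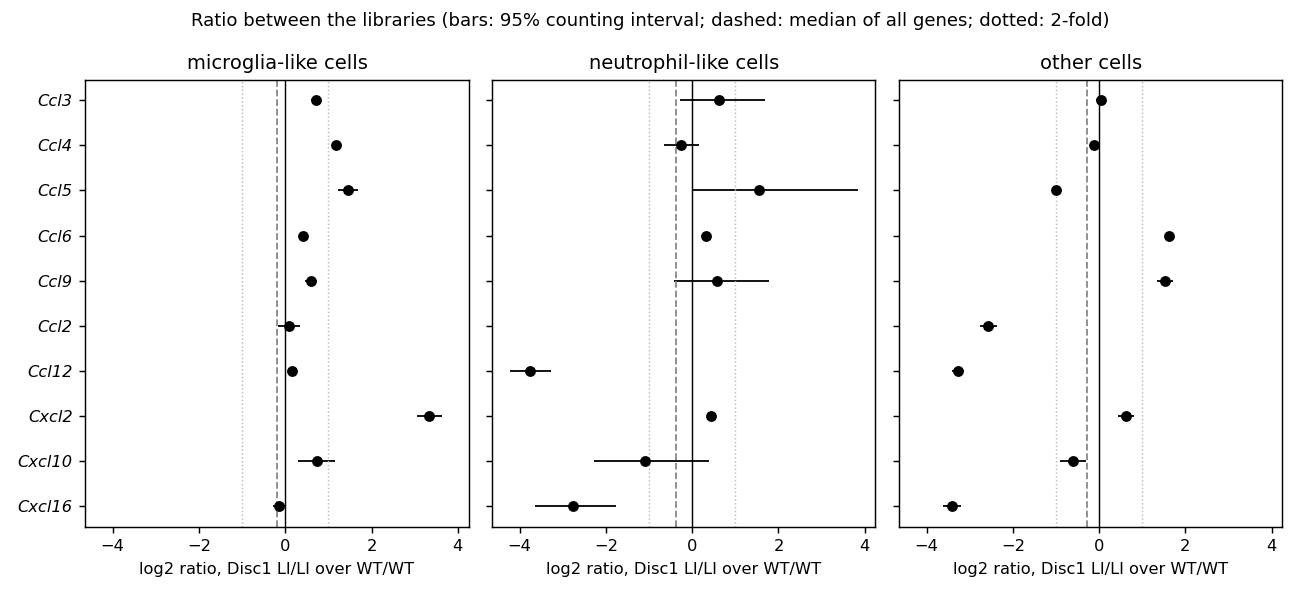
Log2 ratio of each ligand, LI over WT, in the 3 classes, scaled by total UMIs. Points are 1 library against 1 library, bars are 95% counting intervals, the dashed line is the median of all genes compared in that class, and dotted lines mark 2-fold. Ccl2 in neutrophil-like cells had too few UMIs and is not drawn. Ccl12 lies at -3.76 and -3.28 in neutrophil-like and other cells and at 0.17 in microglia-like cells.

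In the other cells, Ccl6 and Ccl9 were at least 2-fold higher in LI (2 of 10 ligands, where 6.03% of 10543 genes were) and Ccl2, Ccl12 and Cxcl16 at least 2-fold lower (3 of 10, where 19.9% of genes were). Ccl6 stood at 303 CPM in WT and 926 CPM in LI, and Ccl9 at 73.8 and 213 CPM. Ccl2 stood at 127 and 21.5 CPM, Ccl12 at 371 and 38.2 CPM, and Cxcl16 at 175 and 16.4 CPM. The median log2 ratio was -0.37, and TMM scaling, which shifts this class by 0.48, moved it to 0.12. The make-up of these cells differed between libraries. By their markers, WT held 117 border macrophage-like, 51 monocyte-like, 67 dendritic cell-like and 40 T and NK cell-like cells, and LI held 20, 1133, 80 and 99. A further 340 WT and 200 LI cells had the microglia list as their most detected list (at least 3 of 10 markers) and were left unnamed. Of these markers, 0 in WT and 10 in LI stood above the rest of the library. In neither library was a microglia marker among the 10 leading genes of these cells. They made up 46.2% of the other cells in WT and 8.91% in LI. Ccl4 stood at 666 and 1034 CPM in them, from 1061 of the 1415 WT and 1136 of the 6618 LI UMIs of the class. The log2 ratio there was 0.63 for Ccl4, -0.43 for Ccl12, -1.20 for Cxcl16 and -0.77 for Ccl2. For the class these were -0.12, -3.28, -3.41 and -2.57.

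Within subsets the contrasts were narrower for some ligands and not for others. Monocyte-like cells carried Ccl6 at 1227 CPM (1113 to 1350) and 1648 CPM (1620 to 1677), a log2 ratio of 0.43 where the whole class gave 1.61. In border macrophage-like cells Ccl6 gave 1.2 (0.67 to 1.71) and in dendritic cell-like cells 2.14 (1.70 to 2.60), wider than the class. Ccl9 gave 0.40 in monocyte-like cells and 1.46 in dendritic cell-like cells, where the class gave 1.53. Ccl5 in T and NK cell-like cells gave 0.14 (0.05 to 0.22), where the class gave -1.0. Cxcl16 in border macrophage-like cells stood at 228 CPM (185 to 279) and 205 CPM (120 to 329), with overlapping intervals, where the class gave -3.41. In dendritic cell-like cells, however, it stood at 263 and 71.5 CPM. Ccl12 in monocyte-like cells stood at 206 and 3.45 CPM, but 1 of the 51 WT cells held 68 of the 71 UMIs. Ccl2 there stood at 206 and 30.5 CPM, from 4 WT cells of which 1 held 43 of 71 UMIs. Cxcl2 in monocyte-like cells rests on 1 UMI in WT and stood at 123 CPM in LI, where it was detected in 18.0% of cells at a median of 6553 UMIs. The LI T and NK cell-like cells, not a known source, showed it in 10.1% at a shallower median of 3559 UMIs. Of the 960 Cxcl2 UMIs in LI monocyte-like cells, 172 were in 1 cell.

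**Figure D4:**
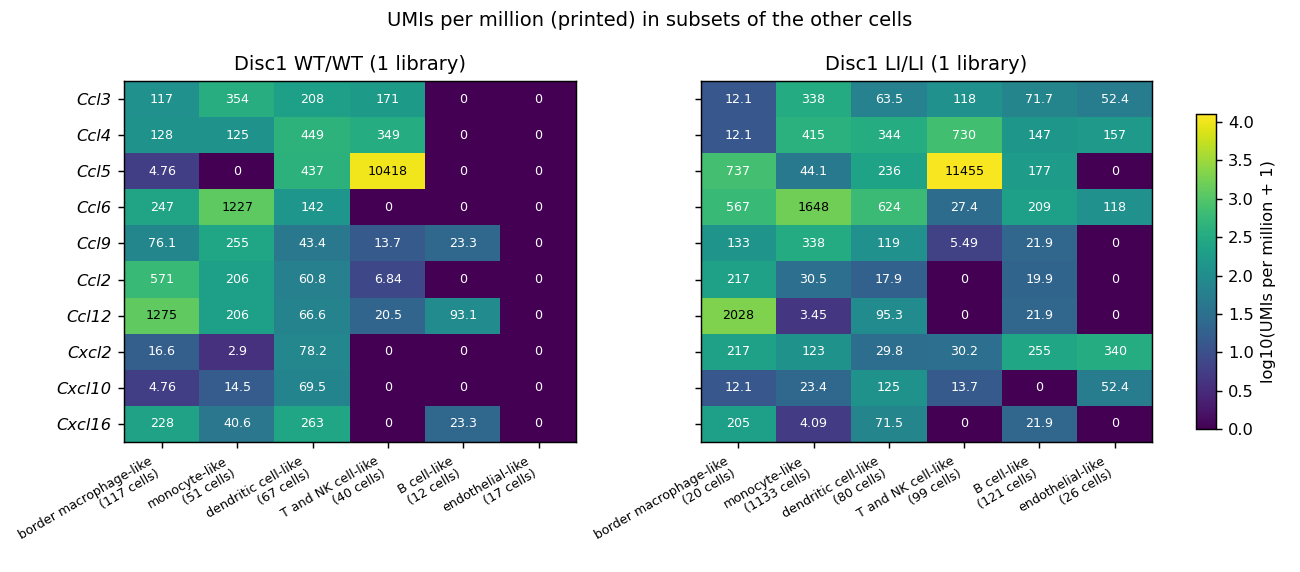
CPM of each ligand (printed in the cells, coloured on a log scale) in subsets of the other cells of each library, with the number of cells under each column. The unnamed cells with the microglia list most detected are not drawn. Among the 6 subsets drawn, Ccl5 is brightest in T and NK cell-like cells (10418 and 11455 CPM), Ccl12 in border macrophage-like cells (1275 and 2028 CPM) and Ccl6 in monocyte-like cells (1227 and 1648 CPM).

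The cells that the marker rule named basophil and mast-like, marked by Mcpt8, Cpa3 and Fcer1a, were few but carried high levels. The 9 such LI cells had 250 Ccl3 UMIs (4042 CPM, 3556 to 4575), 161 Ccl4 UMIs (2603 CPM) and 171 Ccl6 UMIs (2764 CPM), each detected in 8 of the 9. The single WT cell of this kind had 70 Ccl3 UMIs, 0 of Ccl4 and 0 of Ccl6. A further 170 LI cells had equal shares of 2 or more lists and were left unnamed. Prss34, Mcpt8 and Cpa3 led their genes, and the granulocyte progenitor markers Ctsg, Mpo, Prtn3, Elane and Ms4a3 were also in their top 10. At a median of 14680 UMIs, these unnamed cells carried Ccl3 at 208, Ccl4 at 189 and Ccl6 at 283 CPM. In endothelial-like cells no ligand UMI was found among 17 WT cells. In 26 LI cells Cxcl2 gave 26 UMIs, of which 24 were in 1 cell.

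Of 26 further chemokine ligands looked up, 23 were in the gene list, 19 had a UMI and 5 reached 50 CPM in a class of a library. The 5 highest were Pf4, Cxcl9, Ccl7, Ccl8 and Cxcl12, each highest in the other cells of WT. Pf4, a platelet factor also used as a border macrophage marker, stood there at 697 CPM, against 30.1 CPM in LI. Cxcl9, a CXCR3 ligand, stood at 129 and 4.85 CPM, and the CCR2 ligand Ccl7 at 98.1 and 2.17 CPM. Ccl8 stood at 79.7 and 3.85 CPM and Cxcl12, made by endothelium, at 59.6 and 9.03 CPM.

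The receptors of these ligands differed by class too. Of 22 receptor genes, 20 had a UMI and 6 reached 50 CPM. Cxcr2, the receptor of Cxcl2, stood at 361 and 336 CPM in neutrophil-like cells and at 0.136 and 3.92 CPM in microglia-like cells. Ccr1 was also highest in neutrophil-like cells, at 318 and 298 CPM. Ccr2, which binds Ccl2 and Ccl12, was highest in other cells, at 298 and 594 CPM. Cx3cr1, the receptor of fractalkine, stood at 3301 and 2811 CPM in microglia-like cells. Cxcr4, the receptor of Cxcl12, was highest in other cells, at 53.7 and 75.0 CPM.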

How the data were processed

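The authors deposited unnormalized UMI counts per gene and barcode, made with Cell Ranger 6.1.2 (file header) on mm10. The submitters' processing notes also name STAR and Seurat 3.0.1. Which of the chips and kits was used for which library is not given in the sources used here. From the counts, barcodes were filtered, classed and summed as described above, and CPM, shares of cells and log2 ratios were computed with exact Poisson, binomial and Clopper-Pearson intervals (scipy 1.17.1, pandas 2.3.3 and numpy 2.4.6 in Python 3.11.15), and drawn with matplotlib 3.10.9. Genes with at least 50 UMIs over both libraries were compared, and 2-fold was the limit for a call. Where a call of 2-fold or a drawing met a count of 0, a floor of 3 counts was used. Other cells went to the marker list of which the largest share was detected, with at least 3 markers. Doublets were not removed. No p-value was computed, as cells are not replicates. TMM factors came from edgeR 4.0.16 (R 4.3.3). All 10 members are named, and of the further ligands and receptors the 5 highest in any class. Of the receptor list and the mature neutrophil list, 1 gene each is not reported here and was left out of the computation. The members and lists were chosen with earlier results of these data known. The ratio and its interval were tested only on simulated data drawn as independent counts. Such data lack the concentration of UMIs in few cells seen for Ccl4 and Ccl5, so that test does not cover it.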

Additional observations from a re-analysis of the deposited data

Results flagged for a closer look

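The log2 ratio of LI over WT pointed in opposite directions in microglia-like cells and in another class for 4 ligands, with counting intervals on opposite sides of 0. With 1 library per genotype these differences were not tested. The ratio of Ccl12 was 0.17 in microglia-like cells and -3.76 in neutrophil-like cells, a difference of 3.93, and 46 of the 55 WT neutrophil-like UMIs were in 1 cell. Against the other cells (-3.28) its difference was 3.44, and the border macrophage-like cells, where Ccl12 stood highest, numbered 117 and 20. These held 536 and 168 Ccl12 UMIs. The unnamed cells with the microglia list most detected numbered 340 and 200 and held 609 and 312. Ccl5 differed by 2.46 between microglia-like cells (1.46) and other cells (-1.0), and its ratio in microglia-like cells was -0.14 without the 5% deepest cells. Ccl4 differed by 1.30 (1.19 and -0.12), and TMM scaling gave a ratio of 0.37 in the other cells. Within the other cells Ccl4 gave 0.63 (0.51 to 0.76) in the unnamed cells with the microglia list most detected. It gave 1.73 (1.30 to 2.20) in monocyte-like and 1.06 (0.63 to 1.53) in T and NK cell-like cells. In dendritic cell-like cells it gave -0.39 (-0.71 to -0.06), and border macrophage-like cells held 54 WT and 1 LI UMIs. Cxcl10 differed by 1.35 (0.74 and -0.61), and with a microglia gene limit of 1% both directions turned (-0.43 and 0.64). In the unnamed cells Cxcl10 gave 1.19 (0.76 to 1.62), with 114 of the 121 LI UMIs in 1 cell. In dendritic cell-like cells it gave 0.85 (0.15 to 1.59), with 55 of the 63 LI UMIs in 1 cell. Monocyte-like cells gave 0.69 (-0.56 to 2.33). In the 12 WT and 175 LI cells led by the cycling list, however, Cxcl10 stood at 102 and 5.17 CPM.

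The 17 LI barcodes left out by the filter held 6 UMIs of the ligands, 2 of them of Ccl6.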

How the results depend on the processing

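No paired analysis was possible because each genotype has 1 library. Each log2 ratio was recomputed under 11 alternatives, and under 1 more, chosen after seeing the data, which left out the highest cell of each ligand. In microglia-like cells Ccl4 (1.09 to 1.32) and Cxcl2 (2.99 to 5.10) stayed at least 2-fold higher in LI under all 12, and Ccl5 under 10. In other cells Ccl2, Ccl6, Ccl9, Ccl12 and Cxcl16 stayed at least 2-fold apart in the same direction under all 12. Of the ratios past 2-fold, directions reversed for Ccl5 in microglia-like cells without the 5% deepest cells (-0.14), Ccl5 in neutrophil-like cells thinned to 1000 UMIs (-0.28) and Cxcl10 in neutrophil-like cells with S100a8 and S100a9 at 10% or more (0.11). The last setting left 2 of the neutrophil-like ligands at least 2-fold apart instead of 4, with Ccl12 at -0.59. Of the ratios short of 2-fold, the sign also changed under at least 1 alternative for Ccl2 (lowest -0.16), Ccl12 (-0.11) and Cxcl10 (-0.43) in microglia-like cells, Ccl3 (-0.52) and Ccl4 (highest 0.65) in neutrophil-like cells, and Ccl3, Ccl4 (0.37), Ccl5 (0.43) and Cxcl10 (0.64) in other cells. The median over the ligands in microglia-like cells was 0.41 and 0.80 with a microglia gene limit of 1% and 0.25%, 0.79 by TMM, 0.50 when thinned and 0.47 without the deepest cells. In neutrophil-like cells it was 0.87 by TMM, 0.45 with totals that exclude hemoglobin, mitochondrial and S100a8/S100a9 UMIs, -0.28 when thinned, 0.45 without the deepest cells, 0.55 without the highest cells and 0.034 with every ligand that had a UMI. In other cells it was 0.51 with the 1% limit, 0.12 by TMM, 0.055 as a mean of cells' CPM and -0.11 when thinned. The cause of these shifts was not tested. Counts limit Ccl2, Ccl5, Cxcl10 and Cxcl16 in neutrophil-like cells most, with 3 to 13 UMIs in WT.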
